A study of Mus musculus with 6 samples.

Results

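Fibronectin and the matricellular genes of wound matrix were read in whole lung from mice with and without *Clec7a*, all of them given bleomycin. The set holds 10 genes, *Fn1*, *Vcan*, *Tnc*, *Thbs1*, *Thbs2*, *Postn*, *Tgfbi*, *Sparc*, *Cthrc1* and *Fap*, taken by symbol from a count table of 26100 gene rows. Each symbol matched 1 row, and all 10 passed the low-count filter that left 16633 rows for testing. The wild type (WT) group had 3 libraries and the *Clec7a* knockout (KO) group had 3. The series' design text gives 3 mice per genotype. *Clec7a* encodes dectin-1, a receptor of myeloid cells for fungal beta-glucan. Both groups received bleomycin, a DNA-damaging drug that scars the lung, by instillation through the trachea, and lungs were taken at day 14. Uninjured lungs were not analysed here, and the labels used here state neither the strain, age and sex of the mice nor how the knockout allele was made. The comparison therefore asks how injured lungs of the 2 genotypes differ, not what bleomycin changed.

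When the alveolar wall is injured, plasma proteins and fibronectin first fill the defect as a provisional matrix, on which fibroblasts move in. Activated fibroblasts then lay down fibrillar collagen together with matricellular proteins, which are secreted into the matrix to regulate adhesion, growth factor activity and fibre assembly more than to bear load. Many of these genes respond to transforming growth factor beta, and their products bind cells through integrins and other surface receptors. Several are also made by macrophages, platelets, endothelium or smooth muscle, so their level in whole lung does not report on fibroblasts alone. In bulk tissue, fewer cells of a type and less RNA per cell cannot be told apart.

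The libraries held 31052936 to 34451956 counts. *Clec7a* was at 60.6, 84.0 and 196.5 CPM (counts relative to library size, scaled by TMM factors) in the WT libraries, and the KO libraries held 3.60, 6.85 and 2.84 CPM, with no overlap. The lung markers *Sftpc*, *Ager* and *Scgb1a1* were read in all 6 libraries. The 2 libraries with replicate number 1 stood apart from the other 4: across genes, the Spearman correlation of any pair that held one of them was 0.947 or lower, and that of the other pairs was 0.959 or higher. On a scale of log2 CPM centred on the mean of the 6 libraries, the mean of 10 lung epithelial markers was 1.20 in WT replicate 1 and 0.83 in KO replicate 1, against -0.81 and -1.48 in WT replicates 2 and 3 and -0.50 and 0.76 in KO replicates 2 and 3. Genes with long exons (7454 bases or more) had a median of -0.25 and -0.22 in the 2 first replicates and 0.10 to 0.15 in the other 4. Mitochondrial genes took 7.34% of counts in KO replicate 1 and 2.69% to 3.87% in the others. Values without the first replicates are given for some results below, not for all.

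All 10 genes had lower estimates in KO lungs, and none passed the test over all genes. The median log2 fold change (KO minus WT, as in every fold change below) of the 10 was -0.79, against -0.01 over the 16633 genes, of which 51.0% had an estimate below 0. The differences ran from -0.21 for *Postn* to -2.00 for *Tnc*, and 4 of the 10 (*Fn1*, *Tnc*, *Thbs2* and *Vcan*) were at -1 or less, where 5.18% of all genes lay. With the quasi-likelihood test of edgeR, 0 of the 10 had a Benjamini-Hochberg adjusted p under 0.05 and 0 had an unadjusted p under 0.05, while DESeq2 also called 0 after adjustment and had 3 at an unadjusted p under 0.05 (*Tnc*, *Vcan* and *Tgfbi*). For edgeR, 0.0% of all genes were called in either direction after adjustment, while 5.89% were lower and 5.95% higher at an unadjusted p under 0.05. For DESeq2, the shares of all genes called lower were 1.73% and 6.61%. *Clec7a* itself, at -4.68 ± 0.61, had an edgeR adjusted p of 0.203 and a DESeq2 adjusted p of 1.52e-14. No gene had a smaller edgeR adjusted p, so that test did not call the knocked-out gene either. With limma-voom 0 of the 10 were lower at an unadjusted p under 0.05, where 6.32% of all genes were. Without both first replicates, 4 of the 10 (*Fn1*, *Tnc*, *Vcan* and *Tgfbi*) were lower at an edgeR unadjusted p under 0.05. Of all genes, 14.7% were. The genes were chosen with earlier results of these data known and come from the same 6 libraries, so their shared sign is a description and not a count of independent results.

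**Figure D1:**
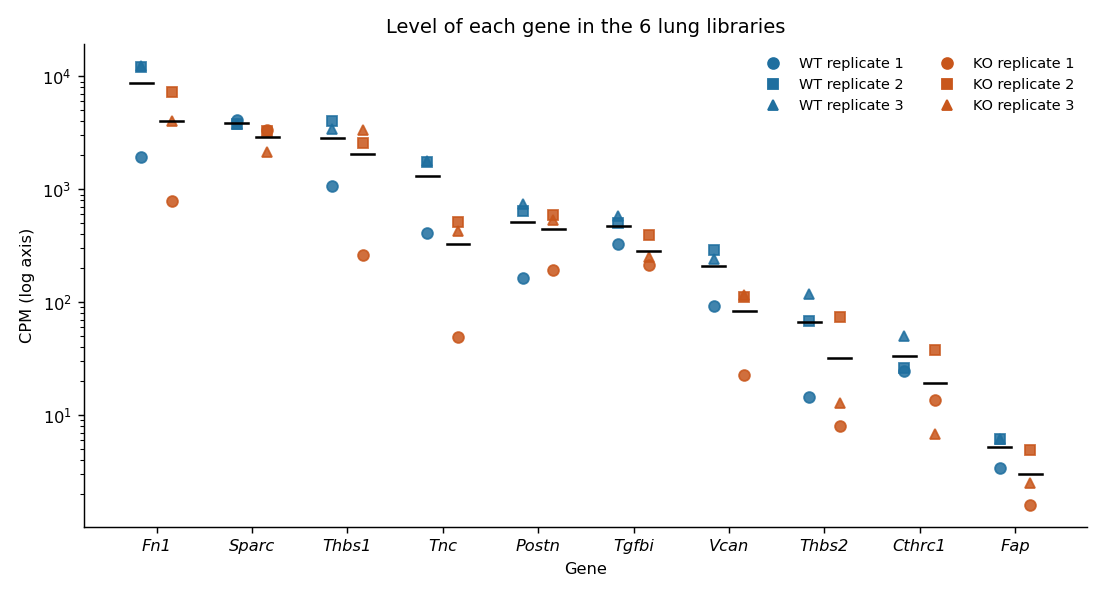
Level of each of the 10 genes in CPM (vertical axis, logarithmic) in every library, with genes ordered by WT mean on the horizontal axis, WT in blue, KO in orange, a symbol for each replicate number and a black bar at each group mean. *Fn1* spans 789.9 to 12374 CPM, whereas *Sparc* spans 2162 to 4094 CPM and is the only gene whose groups do not overlap.

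The groups failed to overlap for 1 gene of the 10, *Sparc*, while 11.3% of all genes were lower in KO without overlap. None of the 10 was higher without overlap, against 9.81% of all genes. The count depended on which libraries entered, and so did the share over all genes. Without WT replicate 1 the KO values lay below all WT values for 8 of the 10 (all but *Cthrc1* and *Thbs2*), against 22.3% of all genes. The same 8 genes did so without both first replicates. Without the first replicates 33.2% of all genes were lower and 30.8% higher without overlap, and 0 of the 10 were higher. Without KO replicate 2 the count was 5 (*Cthrc1*, *Sparc*, *Thbs2*, *Tgfbi* and *Fap*), against 14.7% of all genes. The count was 1, *Sparc*, without WT replicate 2, WT replicate 3, KO replicate 1 or KO replicate 3, where 12.8%, 14.0%, 21.5% and 13.8% of all genes were lower without overlap. Within each genotype, replicate 1 was the lowest library for 8 of the 10 in both genotypes, a pattern held by 30.1% of all genes.

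*Fn1* encodes fibronectin, the adhesive glycoprotein on which other scar matrix is assembled. It was at 1928, 12078 and 12374 CPM in WT replicates 1, 2 and 3 and at 789.9, 7284 and 3994 CPM in the KO replicates. WT replicates 2 and 3 were the highest, but WT replicate 1 lay below KO replicates 2 and 3, so the groups overlapped. By count *Fn1* was the most abundant gene of the whole table in WT replicates 2 and 3, where it took 1.19% and 1.23% of all counts. It ranked 2 and 5 in KO replicates 2 and 3, and 33 and 113 in the first replicates of WT and KO. Group means were 8793 ± 5947 and 4022 ± 3247 CPM (SD, n = 3 each), a log2 fold change of -1.13 ± 0.95 (SE; edgeR adjusted p 0.690). The difference was smaller than the spread among replicates, since the mean of replicates 2 and 3 was 6.34-fold the first replicate in WT and 7.14-fold in KO.

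*Vcan* encodes versican, a large proteoglycan that binds hyaluronan and loosens the provisional matrix. Its WT libraries were at 91.8, 292 and 242 CPM, and its KO libraries at 22.9, 111 and 117 CPM. WT replicate 1 fell between KO replicate 1 and the other 2 KO libraries. The log2 fold change was -1.32 ± 0.68 (edgeR adjusted p 0.509), and it was -1.22 ± 0.13 without the first replicates (edgeR adjusted p 0.0549). *Vcan* passed the threshold with limma-voom and sample weights (-1.36, adjusted p 0.0394), where 6.11% of all genes were called lower.

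*Tnc* encodes tenascin-C, a hexameric glycoprotein that is scarce in resting adult tissue and made at sites of repair. It showed the largest difference of the 10. WT libraries were at 412, 1733 and 1798 CPM and KO libraries at 48.9, 513 and 425 CPM, means of 1315 ± 782 and 328.9 ± 246.4 CPM (SD, n = 3 each). KO replicates 2 and 3 were above WT replicate 1 and far below WT replicates 2 and 3, so the groups overlapped through WT replicate 1. The KO mean was 0.250-fold the WT mean, and WT replicate 1 was 8.43-fold KO replicate 1. Over all 6 libraries the log2 fold change was -2.00 ± 0.92 (edgeR adjusted p 0.463, DESeq2 adjusted p 0.165). *Tnc* passed the threshold under 2 alternatives: without both first replicates (-1.90, edgeR adjusted p 0.0432, where 0.167% of all genes were called lower) and with limma-voom and sample weights (-2.03, adjusted p 0.0327, where 6.11% were called lower).

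Thrombospondins are trimeric or pentameric secreted proteins, and thrombospondin-1 activates latent transforming growth factor beta. *Thbs1* was at 1066, 4042 and 3419 CPM in WT and at 259.7, 2578 and 3352 CPM in KO. KO replicate 3 was close to WT replicate 3, and the log2 fold change of -0.46 ± 0.91 (edgeR adjusted p 0.887) was within its error. Without KO replicate 1, the lowest library, the estimate was 0.061. *Thbs2*, which encodes the related thrombospondin-2, was low and uneven: 14.6, 68.6 and 118.5 CPM in WT and at 8.12, 74.7 and 12.9 CPM in KO. KO replicate 2 exceeded WT replicate 2, and the estimate was -1.08 ± 1.02 (edgeR adjusted p 0.730). Leaving out KO replicate 2 moved the *Thbs2* estimate to -2.68, and leaving out WT replicate 3 moved it to -0.39.

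*Postn* and *Tgfbi* encode periostin and TGF-beta-induced protein, relatives built from fasciclin domains that bind integrins and collagen. *Postn* was at 163, 641 and 736 CPM in WT and at 194, 598 and 537 CPM in KO. Its 2 first replicates were the lowest libraries, KO replicate 1 lay above WT replicate 1, and the groups overlapped, with a log2 fold change of -0.21 ± 0.64 (edgeR adjusted p 0.929). *Tgfbi* was at 329, 504 and 581 CPM in WT and at 212, 394 and 249 CPM in KO. Only KO replicate 2 reached above the lowest WT library, and the log2 fold change of -0.73 ± 0.33 (edgeR adjusted p 0.462) had the smallest unadjusted p of the 10, 0.0693.

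*Sparc* encodes osteonectin, a calcium-binding protein that chaperones collagen into fibrils. Its level differed least among libraries: 4094, 3821 and 3787 CPM in WT and at 3321, 3295 and 2162 CPM in KO. The WT libraries all lay above the KO libraries, and KO replicate 3 was the lowest. The log2 fold change was -0.41 ± 0.30 (edgeR adjusted p 0.633), and it was between -0.24 and -0.51 under every alternative tried. First replicates were not low for *Sparc*: the mean of replicates 2 and 3 was 0.929-fold the first replicate in WT and 0.822-fold in KO.

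*Cthrc1*, a secreted glycoprotein that marks the fibroblasts depositing most collagen in fibrotic lung, was at 24.7, 26.1 and 50.4 CPM in WT and at 13.7, 37.8 and 6.88 CPM in KO. The groups interleaved, since KO replicate 2 was above WT replicates 1 and 2, and the estimate was -0.79 ± 0.63 (edgeR adjusted p 0.673). *Fap* encodes fibroblast activation protein, a surface peptidase of activated fibroblasts and not itself a matrix protein. It was the scarcest of the 10, with 112, 199 and 211 raw counts in WT and 51, 166 and 81 in KO. In CPM these were 3.44, 6.12 and 6.16 against 1.61, 4.94 and 2.50, a log2 fold change of -0.79 ± 0.49 (edgeR adjusted p 0.578).

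**Figure D2:**
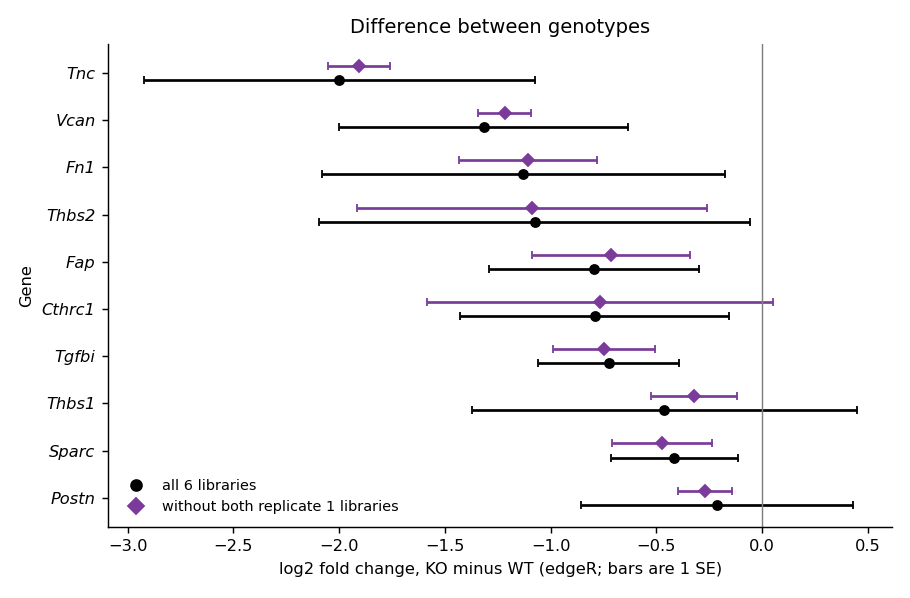
Log2 fold change, KO minus WT, of each gene from edgeR (horizontal axis), with bars of 1 SE, for all 6 libraries (black circles) and without both first replicates (purple diamonds). All 20 estimates lie below 0, from -2.00 for *Tnc* to -0.21 for *Postn* with all 6 libraries.

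Levels can be compared between genes only per length, for which the deposited FPKM values (fragments scaled to transcript length and library size) were used. In WT the order was *Sparc* (1694 ± 37 FPKM, SD, n = 3), *Fn1* (1068 ± 735), *Thbs1* (464 ± 265), *Tnc* (178 ± 110), *Tgfbi* (164 ± 51), *Postn* (158 ± 97), *Cthrc1* (27.7 ± 12.7), *Vcan* (19.3 ± 9.5), *Thbs2* (10.9 ± 8.6) and *Fap* (1.81 ± 0.61). Between neighbours in this order, the means of *Tnc*, *Tgfbi* and *Postn* differed by less than the larger SD, as did those of *Sparc* and *Fn1*, *Fn1* and *Thbs1*, *Cthrc1* and *Vcan*, and *Vcan* and *Thbs2*. In KO the order was *Sparc* (1337 ± 298), *Fn1* (508 ± 415), *Thbs1* (349 ± 273), *Postn* (140.2 ± 70.3), *Tgfbi* (103 ± 37), *Tnc* (45.9 ± 34.7), *Cthrc1* (16.6 ± 14.2), *Vcan* (8.12 ± 4.95), *Thbs2* (5.37 ± 6.31) and *Fap* (1.10 ± 0.62). Here neighbours differed by more than the larger SD only between *Sparc* and *Fn1* and between *Tgfbi* and *Tnc*. *Tnc* and *Postn* exchanged places on either side of *Tgfbi* between the 2 orders, and no other gene changed rank. *Sparc* ranked between 15 and 27 among all genes by FPKM in the 6 libraries, the narrowest range of the 10.

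Across libraries 8 of the 10 genes were lowest in the first replicate of each genotype, and the size of their variation differed. *Sparc* was highest in WT replicate 1, and both *Sparc* and *Cthrc1* were lowest in KO replicate 3. On the centred log2 CPM scale their mean was -0.46, 0.93 and 1.10 in WT replicates 1, 2 and 3 and -1.65, 0.44 and -0.36 in KO replicates 1, 2 and 3. The range over the 6 libraries was 5.20 for *Tnc*, 3.97 for *Fn1*, 3.96 for *Thbs1*, 3.86 for *Thbs2*, 3.67 for *Vcan*, 2.86 for *Cthrc1*, 2.17 for *Postn*, 1.90 for *Fap*, 1.46 for *Tgfbi* and 0.92 for *Sparc*. The closest pair was *Tgfbi* and *Fap*, whose centred profiles had a root mean square distance of 0.22, followed by *Sparc* and *Tgfbi* (0.43), *Thbs1* and *Vcan* (0.50) and *Fn1* and *Vcan* (0.51). *Vcan* was the nearest of the 10 to *Fn1*, *Tnc* and *Thbs1*. The means of the fibrillar collagen list followed the same library order, at -0.74, 1.48 and 1.75 in WT and -2.54, 0.71 and -0.67 in KO.

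**Figure D3:**
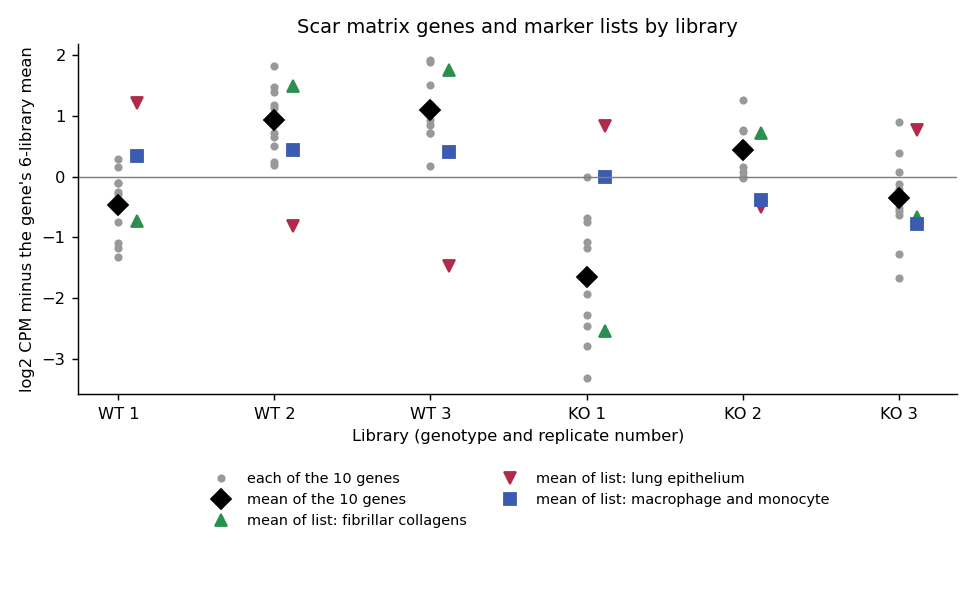
Log2 CPM minus each gene's 6-library mean (vertical axis) by library (horizontal axis) for the 10 genes (grey points), their mean (black diamonds) and the means of 3 gene lists (coloured symbols). The mean of the 10 is lowest in KO replicate 1 at -1.65 and highest in WT replicate 3 at 1.10, and the epithelial markers are at 0.83 and -1.48 in these libraries.

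Outside the set, the genes whose profile lay nearest to the mean profile of the 10 were *Fstl1* (distance 0.11), *Adamts2* (0.12), *Pcdh7* (0.13), *Sec16b* (0.14), *Sox9* (0.15) and *Olfml2b* (0.15), against a median of 1.01 over all tested genes. The measure was taken over 6 libraries and 13629 eligible genes. *Fstl1* encodes a secreted protein related to *Sparc*, and *Adamts2* encodes a procollagen N-propeptidase. *Fstl1* was at 483, 1100 and 1152 CPM in WT and at 208, 792 and 438 CPM in KO, a log2 fold change of -0.93 ± 0.56 (edgeR adjusted p 0.565). *Adamts2* had -1.12 ± 0.57 (edgeR adjusted p 0.503).

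Levels of the 10 were next set against scar collagen of the same library, by subtracting the mean log2 CPM of *Col1a1*, *Col1a2* and *Col3a1*. These collagens were themselves lower in KO by estimate, at -1.27 ± 1.04, -0.97 ± 0.86 and -0.66 ± 0.66, with none past the threshold (edgeR adjusted p 0.680 to 0.744). Relative to them *Tnc* was at -1.62, -1.65 and -1.79 log2 units in WT and at -3.40, -2.98 and -2.25 in KO. Every KO library was below every WT library, with a KO minus WT difference of -1.19. *Postn* went the other way, at -2.96, -3.08 and -3.08 in WT and -1.41, -2.76 and -1.91 in KO, all KO libraries above all WT libraries, with a difference of 1.01. The WT values of both genes were close to each other (SD 0.10 for *Tnc* and 0.07 for *Postn*), while the KO values spread more (SD 0.58 and 0.68).

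For both genes the exact 2-sided permutation p was 0.10, the smallest that 3 against 3 can give, and 0.50 after Benjamini-Hochberg adjustment over the 10 genes. Among all tested genes, 0.319% were lower and 5.62% higher relative to collagen without overlap, and 1 of the 10 was so in each direction. The other 8 overlapped over all 6 libraries, with differences between -0.37 (*Vcan*) and 0.67 (*Sparc*). Over replicates 2 and 3 alone, KO was also below WT for *Fn1*, and above WT for *Sparc*, *Tgfbi* and *Fap*, without overlap. The share of all genes relative to collagen was not computed for these replicates, so these genes cannot be set against it. On CPM not set against collagen, 33.2% of all genes were lower and 30.8% higher without overlap in the same libraries. *Fn1* differed by -0.10 relative to collagen, with values from 0.61 to 1.16 in WT and from 0.62 to 0.98 in KO. For *Sparc* the first replicates were 1.69 and 2.69 above collagen and the other 4 libraries were between -0.72 and 0.10. The median of the 10 was 0.13.

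**Figure D4:**
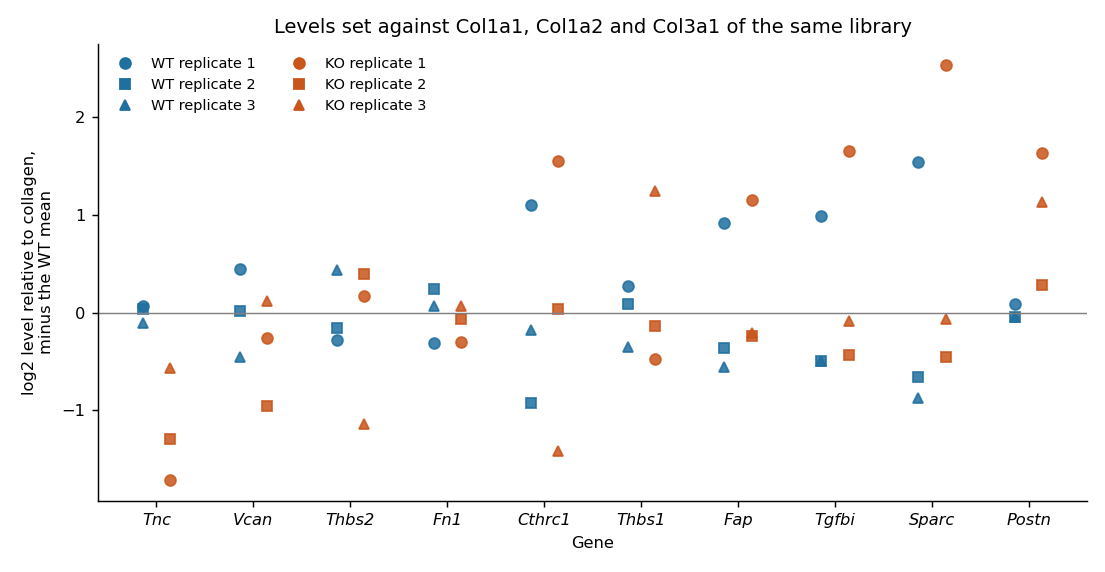
Log2 CPM of each gene minus the mean of *Col1a1*, *Col1a2* and *Col3a1* in the same library, shifted so that the WT mean of each gene is 0 (vertical axis), for genes ordered by the KO minus WT difference (horizontal axis). *Tnc* at the left has all KO libraries below WT (difference -1.19) and *Postn* at the right has all KO libraries above WT (difference 1.01).

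The count ratio of *Tnc* to *Postn* needs no scaling between libraries. It was 2.53, 2.70 and 2.44 in WT and 0.253, 0.857 and 0.792 in KO. Of the 45 ratios that the 10 genes form, 5 had no overlap between the groups, each with an exact permutation p of 0.10 (adjusted 0.804 over the pairs), and each involved *Tnc* or *Postn*. These pairs were *Fn1* to *Tnc*, *Tnc* to *Postn*, *Tnc* to *Thbs1*, *Postn* to *Vcan* and *Postn* to *Fap*, singled out after their values were seen. No share over all pairs of genes was computed to set beside the 5 of 45, so the 5 cannot be read as more than other genes would give. The ratio of *Tnc* was lower in KO without overlap for 3 of its 9 partners, near the 32.4% over all other tested genes. That of *Postn* was higher for 3 of 9, against 2.49% over all other tested genes. The partners were chosen with earlier results known. All 10 genes had lower estimates, and *Postn* at -0.21 had the smallest difference, so the 2.49% is not a like background for these partners.

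Promoter sequence is shown for the genes with the largest differences and for *Postn*. RefSeq windows on GRCm38.p6 were matched for 6 of the 10 genes (*Postn*, *Tnc*, *Sparc*, *Tgfbi*, *Vcan* and *Thbs2*), and the 250 bases before each start site were searched on both strands. The TATA box was searched as TATAAA and the GC box, which binds SP1, as GGGCGG. The element of SMAD proteins was searched as CAGAC and that of TEAD factors as GGAATG. The AP-1 element was searched as TGANTCA, where N is any base, and the CArG box of serum response factor by its usual consensus. None of the matches in the printed windows overlap each other. The windows of *Tnc* and *Vcan*, which had the largest differences, and of *Postn*, which lay on the other side of WT relative to collagen, are printed 5′ to 3′ on the strand of the gene, ending at the base before the start site, with matches in capitals. They cover chr4:64047016-64047265 (minus strand), chr13:89742513-89742762 (minus strand) and chr3:54360857-54361106 (plus strand).
Tnc: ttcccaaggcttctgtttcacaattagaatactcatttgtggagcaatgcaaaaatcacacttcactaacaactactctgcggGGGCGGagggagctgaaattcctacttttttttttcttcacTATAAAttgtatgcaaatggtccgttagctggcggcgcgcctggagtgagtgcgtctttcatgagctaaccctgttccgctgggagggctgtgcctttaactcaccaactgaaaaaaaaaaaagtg
Vcan: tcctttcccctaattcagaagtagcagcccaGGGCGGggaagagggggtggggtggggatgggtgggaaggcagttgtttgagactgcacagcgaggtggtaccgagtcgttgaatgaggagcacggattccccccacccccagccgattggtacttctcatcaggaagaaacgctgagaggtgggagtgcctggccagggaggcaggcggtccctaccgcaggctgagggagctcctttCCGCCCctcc
Postn: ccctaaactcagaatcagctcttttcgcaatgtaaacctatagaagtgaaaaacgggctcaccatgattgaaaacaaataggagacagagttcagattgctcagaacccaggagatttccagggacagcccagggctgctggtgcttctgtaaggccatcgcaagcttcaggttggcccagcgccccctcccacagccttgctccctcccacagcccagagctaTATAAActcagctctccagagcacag
The capitals mark a GC box 167 to 162 bases and a TATA box 126 to 121 bases before the start of *Tnc*. In *Vcan* they mark GC boxes 219 to 214 and 10 to 5 bases before it, the latter on the opposite strand, and in *Postn* a TATA box 26 to 21 bases before it. Counting all windows of the 6 genes, the TATA box was found in 3 (*Postn*, *Thbs2* and *Tnc*), the GC box in 3 (*Tgfbi*, *Tnc* and *Vcan*) and the SMAD element in 5 (all but *Vcan*). Some genes have more than 1 window: counted by window, the motifs were in 4, 4 and 5 of the 8 windows of these genes, against 12.4%, 32.7% and 42.2% of all 32851 windows of this length. The windows of *Tnc* overlap and hold the same TATA box and the same GC box, so each of these sites was counted more than once. The AP-1 and TEAD elements and the CArG box had no match in the windows of the 6 genes, and were in 6.75%, 12.6% and 1.47% of all windows. These are letter matches and not measured binding.

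In GRCm38 coordinates the minus strand carries *Tnc* (chromosome 4, 63959785 to 64047015), *Vcan* (chromosome 13, 89655312 to 89742509), *Fn1* (chromosome 1, 71585520 to 71653200), *Sparc* (chromosome 11, 55394500 to 55423183), *Thbs2* (chromosome 17, 14665500 to 14694235) and *Fap* (chromosome 2, 62500943 to 62574075). The plus strand carries *Postn* (chromosome 3, 54361109 to 54391037), *Tgfbi* (chromosome 13, 56609523 to 56639562), *Thbs1* (chromosome 2, 118111876 to 118127133) and *Cthrc1* (chromosome 15, 39076932 to 39087121). All 10 are annotated as protein coding in GENCODE M21. Their annotated exons together span from 1593 bases (*Cthrc1*) to 14462 bases (*Vcan*). Genes annotated as antisense, noncoding or pseudogene overlap *Fn1*, *Tnc*, *Thbs1* and *Vcan* on the opposite strand, and since no source here states whether counting used strand, reads from them cannot be told apart from those of the 4 genes.

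Of 27 tested genes for other matricellular and provisional matrix proteins, 17 had lower estimates and 10 higher, with a median of -0.22. That median was 0.029 without KO replicate 1, -0.66 without KO replicate 2, -0.62 without WT replicate 1 and -0.49 without KO replicate 3, and -0.19 without both first replicates. After adjustment edgeR called 0, and 7 were lower and 0 higher at an unadjusted p under 0.05. DESeq2 called 4 lower after adjustment: *Smoc2*, *Ecm1*, *Tnn* and *Wisp1*. *Tnn*, another tenascin gene, was at 21.0, 104.4 and 117.8 CPM in WT and at 3.10, 12.8 and 6.60 CPM in KO, and the groups did not overlap. Its log2 fold change was -3.43 ± 0.80 (edgeR adjusted p 0.234, DESeq2 adjusted p 1.36e-04). *Smoc2*, which encodes a secreted protein of the same family as *Sparc*, averaged 55.5 ± 10.6 CPM in WT, against 14.7 ± 6.4 CPM in KO (SD, n = 3; -1.91 ± 0.35, edgeR adjusted p 0.203).

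*Ecm1*, the glycoprotein extracellular matrix protein 1, was at 278 ± 52 and 93.9 ± 28.5 CPM, and *Wisp1*, a CCN family gene, at 123 ± 55 and 32.4 ± 19.6 CPM. *Spp1* (osteopontin, made in scarred lung mainly by macrophages) was the most abundant of this list, at 4514, 7057 and 6209 CPM in WT and at 3579, 2166 and 1108 CPM in KO (-1.38 ± 0.49, edgeR adjusted p 0.363). All 3 KO values were below the WT values. *Sparcl1*, the other abundant gene of the list, had -0.33 ± 0.60 (edgeR adjusted p 0.875).

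Among 23 receptor genes for these matrix proteins, 14 had lower estimates and 9 higher, with a median of -0.11, and edgeR called 0 after adjustment. The median was above 0 without WT replicate 1 (0.021), without KO replicate 1 (0.066) and without both (0.041), and it was -0.31 without KO replicate 3. At an unadjusted p under 0.05, 4 were lower and 1 higher. The 4 lower genes were *Itgb3*, *Itgav*, *Itga5* and *Plaur*. The beta 3 and alpha v integrin chains pair to form a receptor for fibronectin, periostin and other matrix proteins, and alpha 5 pairs with beta 1 as the main fibronectin receptor. *Itgb3* was at 82.8, 78.1 and 53.6 CPM in WT and at 36.0, 37.2 and 39.6 CPM in KO (-0.93 ± 0.21, edgeR adjusted p 0.234, DESeq2 adjusted p 0.0222). *Itgav* was at 171, 198 and 188 CPM in WT and at 109, 124 and 139 CPM in KO, also with no overlap (-0.58 ± 0.18, edgeR unadjusted p 0.0145). For *Itga5* WT replicate 1 (189 CPM) lay below KO replicate 2 (196 CPM), and the estimate was -1.37 ± 0.53 (edgeR adjusted p 0.401). *Plaur*, the urokinase receptor, had -0.67 ± 0.27. The higher gene was *Cd36*, a scavenger and thrombospondin receptor, named after its value was seen. The abundant receptor genes *Itgb1* (-0.33 ± 0.33) and *Lrp1* (-0.57 ± 0.60) differed by about their error.

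Of 22 genes of the transforming growth factor beta pathway, 14 had lower estimates and 8 higher, with a median of -0.18, which ran from -0.38 (without WT replicate 1) to -0.058 (without KO replicate 1) when single libraries were left out. edgeR called 0 after adjustment, and 1 had an unadjusted p under 0.05, *Inhba*. It encodes the activin A subunit, a ligand of the same superfamily, and was at 71.1, 88.8 and 96.9 CPM in WT and at 7.20, 38.4 and 15.3 CPM in KO (-2.07 ± 0.58, edgeR adjusted p 0.276, DESeq2 adjusted p 0.0124). *Fst*, whose product follistatin binds activin, was at 163.3 ± 24.4 and 48.3 ± 39.2 CPM, and *Ltbp1*, a latency protein gene, at 208 ± 85 and 124 ± 54 CPM. *Lrrc15*, a surface marker of matrix-producing fibroblasts, had -1.93 ± 1.24. The abundant genes *Tgfbr2* (-0.35 ± 0.39) and *Ltbp2* (0.03 ± 0.99) were within their error.

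Among 21 genes for matrix proteases and their inhibitors, 14 had lower estimates and 7 higher (median -0.21), with 0 called by edgeR after adjustment and 2 in each direction at an unadjusted p under 0.05. The median was -0.44 when KO replicate 2 was left out and -0.063 when WT replicate 3 was. *Dpp4*, the peptidase gene most closely related to *Fap*, was higher in every KO library (means 27.9 ± 3.4 and 80.3 ± 16.1 CPM; 1.53 ± 0.21, edgeR adjusted p 0.203), while *Fap* had an estimate of -0.79. *Mmp12*, macrophage elastase, was at 11.7, 26.9 and 77.3 CPM in WT and at 146, 465 and 93.3 CPM in KO (2.60 ± 0.88, edgeR adjusted p 0.344). DESeq2 called *Dpp4* and *Mmp12* higher after adjustment. *Timp1* (-1.35 ± 0.44), a metalloproteinase inhibitor, and *Bmp1* (-1.07 ± 0.43), which trims procollagens, were the 2 lower genes. The abundant inhibitors *Timp3* (-0.06 ± 0.27) and *Timp2* (-0.21 ± 0.30) were close between the groups. All 7 fibrillar collagen genes had lower estimates, with a median of -1.22 and 0 at an unadjusted p under 0.05. That median was -2.23 without KO replicate 2 and -0.75 without KO replicate 1. The smallest p of that list was that of *Col5a3* (-2.79 ± 1.16, edgeR adjusted p 0.423), followed by *Col5a2* (-1.22 ± 0.65) and *Col5a1* (-1.76 ± 1.08).

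Markers of other cells that make these proteins were read in the same libraries, and their part in the differences was not tested. Fibroblast markers were mixed, 6 of 10 lower and 4 higher (median -0.23), and 3 of the 6 are the collagens above. That median was 0.22 without KO replicate 1, 0.0022 without WT replicate 3, -0.0018 without WT replicate 2 and -0.56 without KO replicate 2. Summed fibroblast markers were at 4964 to 20261 CPM in WT and 2762 to 14243 CPM in KO. Of 9 myofibroblast and smooth muscle markers 6 were lower, with 5 at an unadjusted p under 0.05 and a median of -1.06, and their sums were 1534 to 2583 CPM in WT and 516 to 1973 CPM in KO. The macrophage and monocyte markers had 10 of 12 lower (median -0.38, or -0.17 without KO replicate 3 and -0.63 without both first replicates). Their sums were 5152 to 6015 CPM in WT and 4828 to 20193 CPM in KO, of which *Lyz2* made up most. The 2 higher genes were *Lyz2* itself (1.35 ± 0.61) and *Ccr2* (0.51 ± 0.36). DESeq2 called *F13a1* (edgeR estimate -2.58 ± 0.29) and *Vsig4* (-4.48 ± 0.65) lower after adjustment. Platelet markers summed to 47.2 to 89.2 CPM in WT and 35.6 to 44.9 CPM in KO. That list had 6 of 8 tested genes lower (median -0.15, from -0.35 without WT replicate 1 to -0.0015 without WT replicate 2). Its most abundant gene, *Pf4*, had a lower estimate (-1.76 ± 0.47), while *Ppbp* had a higher one (1.01 ± 0.42). Endothelial markers had 7 of 8 higher (median 0.23) and summed to 1099 to 3734 CPM in WT and 1798 to 3796 CPM in KO, lowest in the first replicate of each genotype. Their median was -0.12 without WT replicate 1 and 0.44 without WT replicate 2. Mesothelial markers, 4 of 6 lower with a median of -0.65 (0.43 without WT replicate 1 and -1.60 without KO replicate 1), were highest in the first replicates, at 1227 CPM in WT and at 683 CPM in KO. Cartilage markers summed to 10.5 CPM or less in every library. No marker of these lists was at 0 in all libraries.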

How the data were processed

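Whole-lung RNA from 3 WT and 3 KO libraries was read from 2 deposited tables. The authors deposited raw gene counts without normalization, and FPKM values scaled to transcript length and library size. Reads were aligned to GRCm38 with HISAT2 2.0.4 and assembled with StringTie 1.3.4d, per the submitters' processing notes. The counting tool and its settings were not given in the sources used here.

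Members were matched by symbol. Members and gene lists were chosen with earlier results of these data known. The named context genes were, for each list, up to 4 of the smallest unadjusted p and the 2 of highest mean CPM, and the 6 genes nearest to the mean profile were ranked by root mean square distance among those at 1 CPM or more. Counts were TMM-scaled, filtered with filterByExpr and tested across all genes with edgeR 4.0.16 (robust quasi-likelihood, KO against WT, Benjamini-Hochberg adjusted p under 0.05). The SE is the log2 fold change divided by the root of F. Alternatives used DESeq2 1.42.0, limma 3.58.1 (voom, and log2 of FPKM plus 1 or 0.1), other scaling and filters, a replicate block, left-out libraries and, chosen after seeing the data, removal of a gene-length trend. Single ratios were tested with 2-sided exact permutation tests. The edgeR procedure was tested on simulated data. Exon lengths and coordinates came from GENCODE M21 and promoters from RefSeq. R 4.3.3 and Python 3.11.15 were used.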

Additional observations from a re-analysis of the deposited data

How the results depend on the processing

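Of 200 estimates of the 10 genes under the alternatives, 197 were below 0 and 3 passed the threshold. All are refits of the same 6 libraries or some of them, so they are not independent results. The 3 that reversed were *Postn* at 0.14 without WT replicate 3 and 0.15 without KO replicate 1, and *Thbs1* at 0.061 without KO replicate 1. Leaving out 1 library at a time gave -0.64 to 0.15 for *Postn* and -1.001 to 0.061 for *Thbs1*. The count of called genes was 2 (*Tnc* and *Vcan*) with limma-voom and sample weights, where 6.11% of all genes were called lower. It was 1 (*Tnc*) without both first replicates, where 0.167% of all genes were called lower. The cause was not tested. The count without overlap was 8 without both first replicates, against 33.2% of all genes, and 1 to 8 when single libraries were left out, where 12.8% to 22.3% of all genes were lower without overlap. The median log2 fold change stayed below 0, from -1.46 to -0.49, when single libraries were left out. The median relative to collagen ran from -0.26 to 0.47 over the same omissions and was 0.51 against *Col1a1* alone. *Fap* had the fewest counts of the 10, 51 to 211.

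The labels do not say whether replicate numbers pair the libraries, and correlations of deviations from group means over so few libraries cannot decide it. Same-numbered deviations correlated at 0.35, 0.35 and -0.10, and WT replicate 3 correlated best with KO replicate 2 (0.47). With the replicate block 0 of the 10 genes and 0 of all genes were called, as without it. The median of the 10 was -0.96 and 4 had an unadjusted p under 0.05 (edgeR), where 11.5% of all genes were lower.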
